A study of Mus musculus with 16 samples.

Results

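A list of 40 genes for protein folding in the endoplasmic reticulum (ER) and for the unfolded protein response was followed in the pituitary of 16 female mice. The genes were chosen by name, for their known function, but with earlier results of these data known. All 40 were present among the 17362 genes with deposited values. They comprise 11 luminal chaperones, 5 disulfide enzymes, 9 stress sensors and transcription factors, 8 genes of ER-associated degradation (ERAD) and 7 genes of protein translocation and signal peptide removal. The mice fell into 4 groups of 4, namely control females carrying the Esr1fl/fl allele and Esr1Nkx2-1Cre mutant females, each fed standard diet (SD, called chow in the labels) or high-fat diet (HFD). All were 27 weeks old and HFD lasted 17 weeks. The mutants lack oestrogen receptor-α, encoded by Esr1, in cells that have expressed Nkx2-1, a gene of the ventral hypothalamus and posterior pituitary lobe, and control mice carry the same floxed allele. In the study the mutant females are described as having a high bone mass, and the pituitary was 1 of the tissues profiled for transcripts that differ with it. Each library came from 1 mouse, so the p-values measure the spread between mice.

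Secreted proteins enter the ER through the Sec61 channel, lose their signal peptide and fold with the help of chaperones and disulfide isomerases, and those that fail to fold are returned to the cytosol and degraded. When unfolded proteins accumulate, 3 sensors respond. IRE1α (Ern1) splices the mRNA of Xbp1, ATF6 (Atf6) is cleaved to a transcription factor, and PERK (Eif2ak3) slows translation while favouring that of Atf4, whose targets include Ddit3, Trib3 and Ppp1r15a. Hormone-secreting pituitary cells are professional secretory cells and carry an extensive ER. Spliced and unspliced Xbp1, cleavage of ATF6 and phosphorylation of the kinases are not visible in values summed per gene.

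One value per gene and mouse was deposited, taken here as a normalised expression value of the kind kallisto and sleuth give, per length of transcript, although its exact scaling is not stated. Its sum ranged from 908897 to 1335782 per mouse with a median of 966116. The number of reads behind each value is not known, so no counting interval is given. Prolactin transcripts (Prl) made up 28.8% to 40.6% of the summed values, and those of growth hormone (Gh) up to 9.59%, both defining products of the pituitary. Esr1 ranged from 29.0 to 46.6 in control mice on SD and from 10.02 to 22.2 in mutants on SD, whereas on HFD the values of controls (23.6 to 43.4) and mutants (21.5 to 33.4) overlapped. The value of Esr1 covers the whole gene, reads outside the floxed part included. The mutant on SD labelled P357 stood apart, with the largest sum of values, 8.94% of them from mitochondrially encoded genes against 3.54% to 4.59% in the other 15 mice, and 533 genes listed at 0 against 96 to 310. The HFD control labelled P392 had the highest share of Prl and a summed value of melanotroph markers of 3484, against 11369 to 42298 in the other HFD controls, of which the highest was P391. Nearly all of this sum is Pomc, at 3443 to 42042 in HFD controls. Pomc is a corticotroph marker as well, so the sum does not part the 2 cell types. Counts, medians and several other results that rest on P357, P391 or P392 are given without them as well, but not all.

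Cells raise many of the listed genes through short promoter elements, and these are shown first because they do not depend on the values. The genes were chosen for their known function in this response. The share of them that holds an element therefore describes that choice and is not a test. The ER stress response element (ERSE), bound by ATF6 and XBP1 with the factor NF-Y, was searched as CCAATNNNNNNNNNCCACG on both strands in the window from 250 bases before to 50 bases after the annotated gene start (RefSeq, GRCm38.p6). Windows were given for 34 of the 40 genes. Atf6, Hyou1, Sec61a1, Derl1, Ssr2 and Manf had none. ERSE was found in 10 of the 34 genes (29.4%), against 37 of all 27025 genes with a window (0.137%). These genes are Hspa5, Hsp90b1 (with 2 matches), Calr, Canx, Dnajc3, Creld2, Pdia6, Ero1b, Syvn1 and Derl3. Each match is written 5′ to 3′ on its own strand with 10 bases on either side, and capitals mark the fixed letters of the element.
Hspa5: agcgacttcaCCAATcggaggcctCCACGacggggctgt
Hsp90b1: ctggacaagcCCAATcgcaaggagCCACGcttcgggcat
Hsp90b1: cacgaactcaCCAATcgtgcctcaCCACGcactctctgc
Calr: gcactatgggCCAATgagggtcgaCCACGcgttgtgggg
Canx: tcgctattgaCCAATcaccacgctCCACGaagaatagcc
Dnajc3: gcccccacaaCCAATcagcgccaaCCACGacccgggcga
Creld2: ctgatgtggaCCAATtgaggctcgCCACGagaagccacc
Pdia6: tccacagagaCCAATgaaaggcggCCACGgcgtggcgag
Ero1b: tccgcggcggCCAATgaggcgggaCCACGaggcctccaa
Syvn1: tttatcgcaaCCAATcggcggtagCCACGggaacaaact
Derl3: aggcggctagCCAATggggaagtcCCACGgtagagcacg
In these genes the match began between 212 bases and 44 bases before the gene start, as the map of elements shows. In Hspa5 it lay at chr2:34772025-34772043 on the plus strand, in Creld2 at chr15:88819520-88819538 and in Ero1b at chr13:12565682-12565700, both on the minus strand. The related element ERSE-II, searched as ATTGG, any 1 base and CCACG, shares its last letters with ERSE. It was found in Herpud1 and Dnajb11, and in 12 of all 27025 genes (0.0444%). The 8 letters TGACGTGG of the XBP1 element UPRE were in no window of the 34 genes, and in 0.714% of all genes. The 8-letter pattern TGATGNAA of the CARE element, bound by ATF4, was in Herpud1 and Trib3. It is the least selective of the patterns, present in 4.51% of all genes. No matches overlapped. Positions count from the RefSeq start, while the gene spans given below are those of GENCODE, whose starts differ from it, so that the printed windows of Hspa5 and the match in Trib3 fall differently against them. The match in Trib3 starts 14 bases past the RefSeq start (chr2:152344039-152344046, plus strand).
Trib3: cccgcccggcTGATGTAAacctgagcta
The 250 bases before the start of Hspa5, Creld2 and Herpud1 are given whole, on the plus strand, on which all 3 genes lie. They were chosen as the gene with the highest level, a gene whose groups did not overlap on SD and a gene with both ERSE-II and CARE, respectively. Capitals again mark the fixed letters, read on either strand. The windows are chr2:34771840-34772089, chr15:88819396-88819645 and chr8:94386179-94386428.
Hspa5: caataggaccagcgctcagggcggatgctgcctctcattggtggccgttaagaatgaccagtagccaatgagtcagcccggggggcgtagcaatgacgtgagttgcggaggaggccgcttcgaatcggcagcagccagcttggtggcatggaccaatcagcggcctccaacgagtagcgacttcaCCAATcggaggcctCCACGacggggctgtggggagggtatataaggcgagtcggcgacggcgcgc
Creld2: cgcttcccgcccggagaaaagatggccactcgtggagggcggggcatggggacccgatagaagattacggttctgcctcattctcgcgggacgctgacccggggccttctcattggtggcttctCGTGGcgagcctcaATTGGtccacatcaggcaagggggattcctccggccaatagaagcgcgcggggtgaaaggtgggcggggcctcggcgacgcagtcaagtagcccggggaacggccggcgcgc
Herpud1: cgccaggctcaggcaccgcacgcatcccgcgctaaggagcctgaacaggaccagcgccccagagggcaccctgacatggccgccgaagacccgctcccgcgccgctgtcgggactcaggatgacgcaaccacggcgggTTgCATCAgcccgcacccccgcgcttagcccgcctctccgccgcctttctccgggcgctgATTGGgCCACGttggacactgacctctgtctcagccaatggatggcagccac
A match is a description of these letters and not evidence of binding in these cells.

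**Figure D1:**
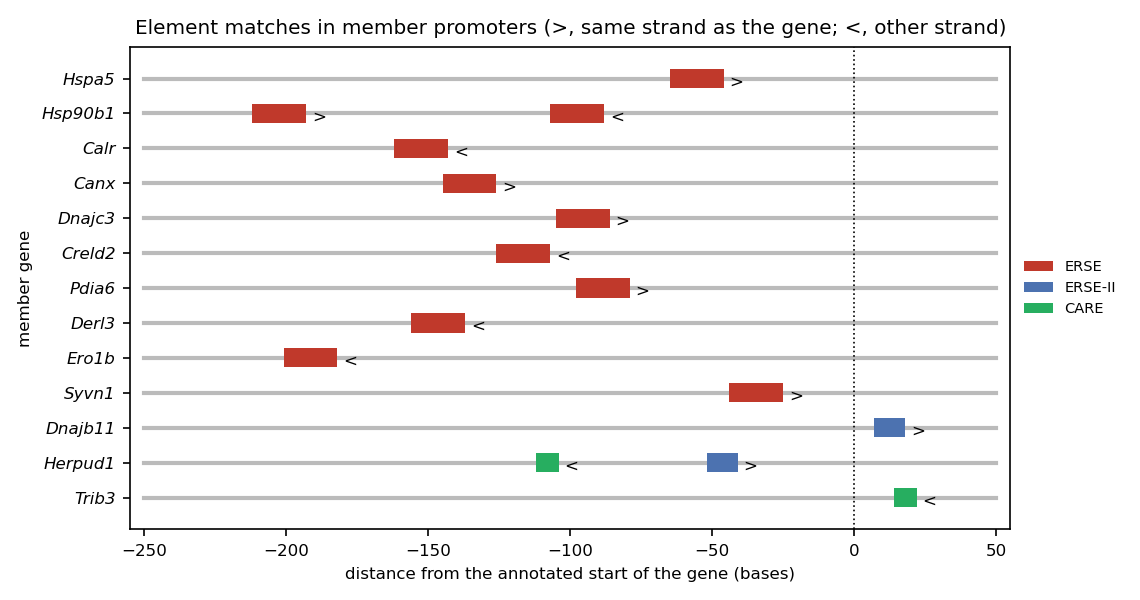
Positions of the ERSE (red), ERSE-II (blue) and CARE (green) matches in the 13 genes that hold any, as distance in bases from the annotated gene start, which is the dotted line. The grey lines span the searched window of 250 bases before to 50 bases after the start, and all ERSE matches lie before the start.

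Levels are described first in control mice on SD. Hspa5, which encodes the chaperone BiP, had the highest value of the 40 genes, 525 ± 108 (SD, n = 4), above 99.3% of all genes. The protein disulfide isomerase gene Pdia3 (487), the ER-resident trophic factor Manf (437), the HSP90 paralogue Hsp90b1 (428) and the lectin chaperone Calr (397) followed, and neighbours in this order differed by less than the SD of Hspa5. Among the translocation genes the channel subunit Sec61b was highest at 335, and among ERAD genes the selenoprotein Selenos at 89.0. Of the sensors and transcription factors, Xbp1 stood at 210 ± 23.9 and Atf4 at 97.8 ± 18.3 (SD, n = 4). The 3 sensors themselves were lower, with Ern1 at 75.0 ± 21.2, Eif2ak3 at 24.8 ± 0.838 and Atf6 at 13.2 ± 2.05. Trib3, a pseudokinase induced by ATF4 and CHOP, was the lowest of the list at 1.58 ± 0.607, above 23.6% of all genes, and the log2(value + 0.5) scale understates fold changes of so low a gene.

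Some of these values may include reads of other genes. Transcripts of Ero1b, an oxidase that recharges the disulfide isomerases, match the pseudogene Gm18562 at 98.05% identity over 921 bases, and Gm18562 has values of its own of 3.68 to 25.4. Sec61b matches Gm10320 at 98.3% identity over 84.0% of its transcript. Exons of 13 of the 40 genes overlap a gene on the opposite strand, Ddit3, Ppp1r15a, Syvn1 and Derl2 among them, and the use of strand in the quantification is not stated.

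Most of the listed genes varied together from mouse to mouse. Over all 16 mice the median Pearson r between pairs of them, taken on log2(value + 0.5), was 0.59 over 780 pairs, against a median of 0.01 between them and all other tested genes. These pairs share the same libraries, so this is a description only. In the 8 controls the median r was 0.74 and in the 8 mutants, P357 included, 0.29. Without P357 it was 0.70 over 15 mice, and the r within mutants without P357 was not computed. With Hspa5, r was 0.95 for Hyou1, a chaperone that exchanges nucleotide on BiP, 0.93 for Dnajc3 and 0.92 for Hsp90b1 and the translocon-associated Ssr3. Without P357 the highest values were 0.97 for Dnajb11, 0.94 for Hyou1 and 0.94 for Xbp1. Trib3 and Ddit3, the gene of CHOP, did not follow, with an r with Hspa5 of -0.18 each, and of 0.04 and 0.13 without P357.

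The spread of these genes between mice was wider among controls than among mutants. The 40 genes summed to 0.704% or less of all values in 15 mice and to 0.797% in the HFD control P385, and the lowest share was 0.435%, in P357. Of the 40 genes, P383 was above the mean of the gene in 1, P391 in 2, P358 in 5 and P359 in 8, all of them controls. By contrast, P392 was above it in 38 and P385 in 35. In mutants on HFD each mouse was above the mean in 33 to 35 genes. The median SD of the log2 values over the 40 genes was 0.24 in controls on SD and 0.29 in controls on HFD, and 0.10 in mutants on HFD, against 0.21, 0.23 and 0.18 over all tested genes. In mutants on SD it was 0.19, and 0.09 without P357. The HFD control P391, low in these genes, was the mouse with the highest melanotroph marker sum, and P392, high in them, had the lowest of its group. The other high control P385 stood at 15598, between P390 (11369) and P391. P357, the mutant on SD with the lowest share of the 40 genes, had the lowest melanotroph sum of all mice. Its sum was 1666.4, against 12370.7 to 15236.5 in the other mutants on SD. The 2 mice with a low melanotroph sum were thus unlike in the 40 genes. P392 was above the mean in 38 genes, which summed to 7474 or 0.691% of its values. P357 was above it in 14, which summed to 5812 or 0.435%. That share is taken of the largest sum of all values (1335782), and the summed value of the 40 genes was lower in P391, at 4814. The part of cell composition in this variation was not tested. In whole tissue, fewer cells of a type and less RNA per cell cannot be told apart.

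**Figure D2:**
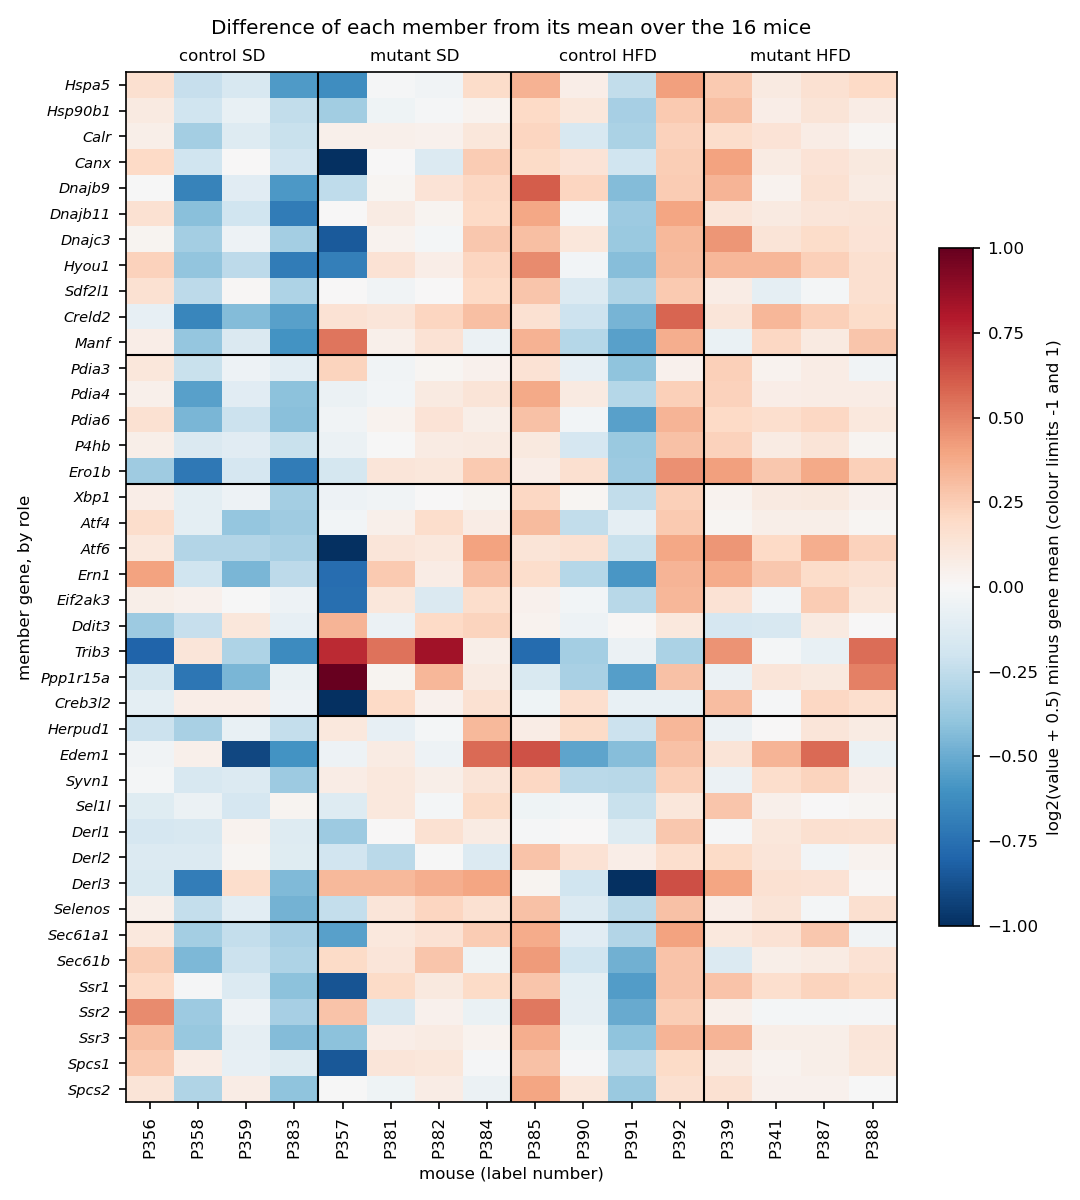
Colour gives log2(value + 0.5) of each of the 40 genes (rows, by role, parted by lines) in each of the 16 mice (columns, by group) minus the mean of the gene over all mice, with colours limited to -1 and 1. Controls P358, P383 and P391 are low and P385 and P392 high in most rows, mutants on HFD are even, and P357 is low in some rows and high in others.

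In P357 the values were also set against transcript length. Against the mean of the other 3 mutants on SD, the 20 genes with the longer transcripts (median length from 2026 bases) were lower by a median of -0.39 on the log2 scale, and the 20 with shorter transcripts (up to 1972 bases) by -0.06. Atf6 stood at 5.002 in P357 and at 16.3 to 20.2 in the other mutants on SD. The calnexin gene Canx stood at 99.6 against 185 to 242. Ppp1r15a, which encodes the GADD34 subunit that reverses PERK signalling, went the other way, at 47.0 against 23.0 to 28.5. The Spearman correlation of the deviation of a mouse from all others with transcript length was -0.47 over the 40 genes and -0.24 over 13765 genes in P357. In the other mice it ranged from -0.37 to 0.54 over the 40 genes, so that P357 lay outside their range on the negative side but not in size, and from -0.11 to 0.19 over all genes. It is given as a description across genes of 1 library. Whether RNA quality sets it was not tested.

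**Figure D3:**
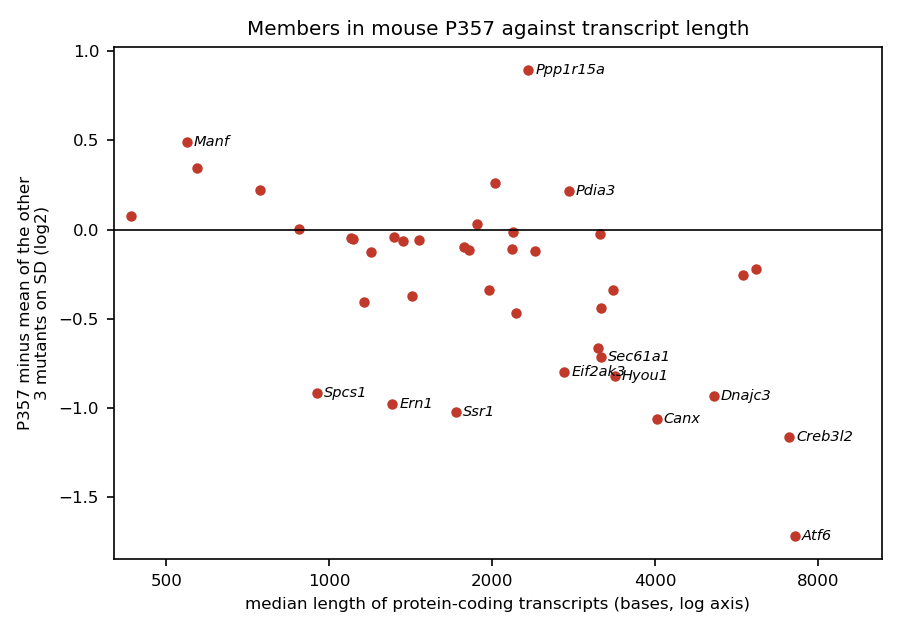
Each point is 1 of the 40 genes, with the median length of its protein-coding transcripts on the x axis (bases, log axis) and the log2 value in P357 minus the mean of the other 3 mutants on SD on the y axis. Atf6 and Creb3l2 at the far right lie lowest and Ppp1r15a highest, while the long Sel1l and Edem1 lie near -0.22 and -0.25 and the shorter Spcs1, Ern1 and Ssr1 between -0.92 and -1.03.

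Mutant and control females on SD were compared first. None of the 40 genes differed at an adjusted p under 0.05 (limma, Benjamini-Hochberg over 14345 genes with a mean value of at least 1, all 40 included, on log2(value + 0.5)), in a comparison in which 1.84% of all tested genes did. The number of all tested genes behind that share, 264, depended on single mice, and ran from 33 without the mutant P382 to 826 without the control P356, with 777 without P392. At an unadjusted p under 0.05, 8 of the 40 (20%) were higher in mutants and 0 lower, against 10.9% of all tested genes higher. The fitted difference was above 0 in 33 of the 40, against 49% of all tested genes, and its median was 0.17 on the log2 scale against -0.01. Without P357 it was above 0 in 39, with a median of 0.27, and without the control P356 the median was 0.27, with 17 genes at an unadjusted p under 0.05. After quantile normalization it was above 0 in 25 genes with a median of 0.08, and after scaling to the sum without Prl, Gh and mitochondrial genes in 25 with a median of 0.06, a scaling that moved the median of all genes to -0.11. By role the medians were 0.28 for disulfide enzymes, 0.26 for ERAD, 0.22 for luminal chaperones, 0.10 for sensors and transcription factors and 0.09 for translocation genes.

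The smallest p-values on SD were those of Trib3, Creld2 and Ero1b. Trib3 (chr2:152337422-152344032) had values of 1.04, 2.41, 1.66 and 1.23 in the controls P356, P358, P359 and P383. In the mutants P357, P381, P382 and P384 they were 3.98, 3.41, 4.30 and 2.28. All mutants but P384 were above every control. The log2 fold change was 0.95 ± 0.25 (SE), with an adjusted p of 0.0607 by limma and of 0.0419 to 0.159 over the alternatives tried. The two-sided exact permutation p was 0.0571, where the smallest value 4 against 4 mice allow is 0.0286.

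Creld2, a disulfide-linked chaperone induced by ER stress (chr15:88819646-88826683), had the smallest p-value of the genes with ERSE. Its values were 66.2, 44.4, 51.7 and 48.1 in the controls on SD, in the same order of mice as above. In the mutants they were 77.6, 76.3, 81.3 and 86.5. The groups did not overlap. The log2 fold change was 0.62 ± 0.17 (SE), with an adjusted p of 0.0746 by limma and an exact permutation p of 0.0286. Over the alternatives the adjusted p ran from 0.0140 to 0.193, and it fell below 0.05 when only the 8 mice compared were fitted (0.0454) and when the control P356 (0.0281), the HFD control P391 or the HFD control P392 (0.0140) was left out, and without both P357 and P392 (0.0189). Ero1b (chr13:12565874-12611396) rested at 21.7, 16.8, 24.8 and 17.0 in controls and at 24.7, 30.3, 30.2 and 33.6 in mutants, so that P357 and the control P359 met. Its log2 fold change was 0.56 ± 0.16, adjusted p = 0.0781 (limma; 0.0190 to 0.217 over the alternatives).

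Ppp1r15a (chr7:45522916-45526268) was 19.9, 13.5, 16.3 and 21.5 in controls and 47.0, 23.0, 28.5 and 24.0 in mutants. The groups did not overlap, P357 standing highest, and the log2 fold change was 0.73 ± 0.23 (adjusted p = 0.102 by limma). Ddit3 (chr10:127290774-127296288) had values of 33.9, 37.3, 47.4 and 41.3 against 55.7, 42.0, 50.5 and 51.1, a log2 fold change of 0.32 ± 0.11 (adjusted p = 0.139). Herpud1, an ERAD scaffold (chr8:94386438-94395377), had 86.0, 79.5, 94.9 and 84.8 against 107, 94.1, 98.7 and 125, a log2 fold change of 0.29 ± 0.12 (adjusted p = 0.175). In both genes 1 mutant fell within the range of the controls, P381 in each. Atf4 itself, at 122, 101, 82.9 and 84.8 in controls and 106, 112, 123 and 114 in mutants, had a log2 fold change of 0.23 ± 0.13 (adjusted p = 0.333). The control P356 was as high as the highest mutant.

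Among the luminal chaperones, Manf and Dnajb11 also reached an unadjusted p under 0.05 on SD, higher in mutants. Manf averaged 437 in controls and 590 in mutants, where P357 stood at 752 and the other mutants at 499 to 574. The fitted differences were 0.44 ± 0.20 for Manf and 0.37 ± 0.17 for Dnajb11 on the log2 scale (± SE). In both genes the groups overlapped, and limma gave adjusted p-values of 0.243 and 0.248. Hspa5, Hsp90b1, Xbp1, Sdf2l1 and the 3 sensors had smaller fitted differences, and none of them reached an unadjusted p under 0.05. Hspa5 (chr2:34771970-34777547) ranged from 401 in P383 to 663 in P356 in controls, with P358 at 506 and P359 at 529.9. In mutants it was 386 in P357 and 588, 579 and 673 in P381, P382 and P384. The 95% interval of its log2 fold change ran from -0.32 to 0.47, and its sign turned under 2 of the 3 other scalings tried, at -0.08 after quantile normalization and -0.03 after scaling to the sum without Prl, Gh and mitochondrial genes. Hsp90b1 had 489, 399.7, 435 and 386.9 in controls and 361, 445, 455 and 469 in mutants, with an interval of -0.27 to 0.30. Xbp1 had 236, 211, 217 and 178 against 218, 220.3, 225 and 229.7, and Sdf2l1, a BiP co-chaperone, had 76.4, 57.3, 69.2 and 55.4 against 68.7, 67.1, 68.7 and 78.7. In Hspa5, Hsp90b1, Xbp1 and Sdf2l1 the mutants lay within or near the range of the controls.

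Among the sensors, Ern1 had 106, 69.5, 58.1 and 66.7 in controls and 47.0, 96.0, 84.2 and 99.3 in mutants. Eif2ak3 had 25.6, 25.3, 24.5 and 23.8 against 14.4, 26.6, 22.2 and 27.9. Atf6 had 16.3, 12.3, 12.3 and 12.02 against 5.002, 16.6, 16.3 and 20.2. P357 was the lowest of all 16 mice in these 3 genes. The log2 fold change of Atf6 was -0.02 ± 0.30 with all mice, 0.41 ± 0.15 without P357 (adjusted p = 0.142 by limma) and 0.08 without the control P356. That of Eif2ak3 was -0.16 with all mice and 0.04 without P357.

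Groups of mice on SD did not overlap in 4 of the 40 genes (10%), all higher in mutants, against 6.09% of all tested genes. Besides Creld2 and Ppp1r15a these were Syvn1, the ERAD ubiquitin ligase, and Derl3, a Derlin of the ERAD channel, which were singled out after their values were seen. Derl3 had 21.3, 14.6, 26.9 and 17.4 in controls and 29.9, 30.0, 30.8 and 31.5 in mutants (log2 fold change 0.63 ± 0.31, adjusted p = 0.269). Without P357 the number was 9 of 40, against 10.9% of all tested genes with 3 mutants. It then also held Dnajb9, Ero1b, Atf6, Selenos and Sec61a1.

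**Figure D4:**
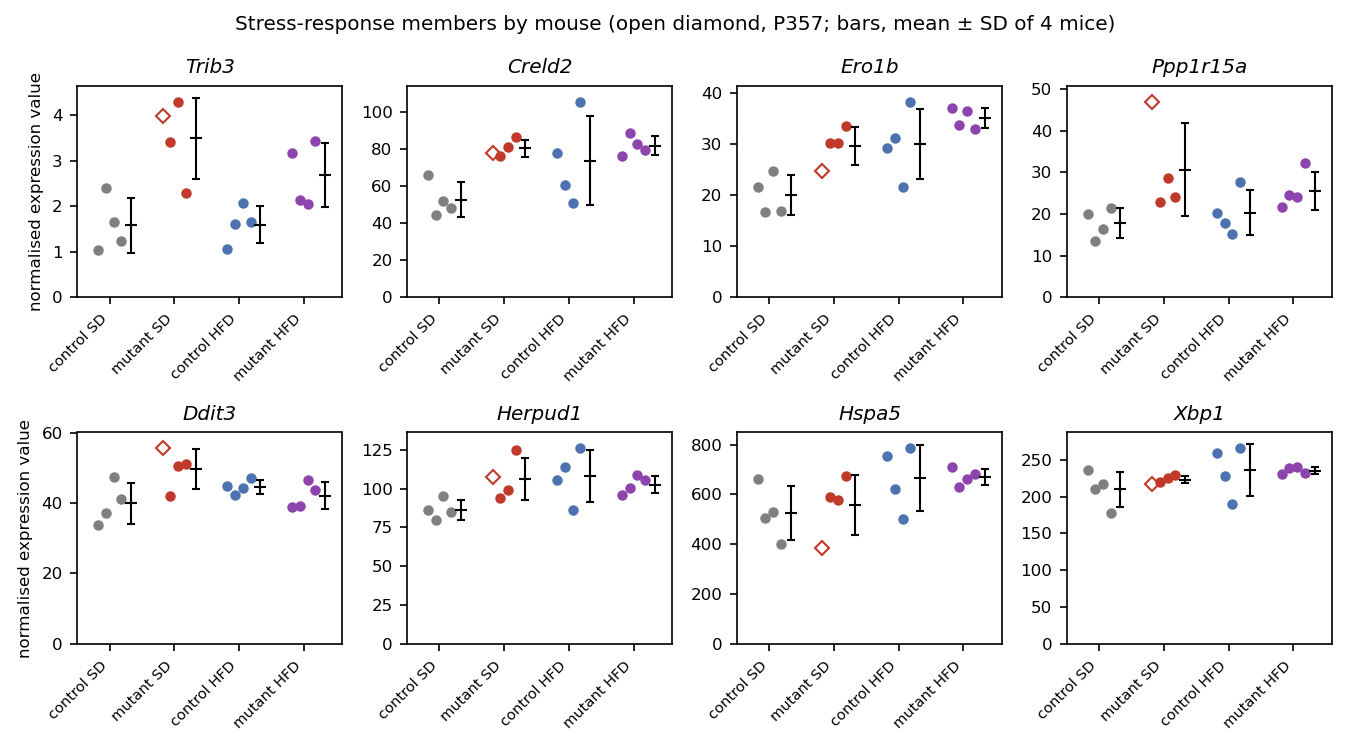
Normalised expression value of 8 of the genes in each mouse (points) in the 4 groups, with mean ± SD of 4 mice (bars) and P357 as an open diamond. Mutants on SD lie above controls on SD in Creld2 and Ppp1r15a, and the groups overlap in the other 6 genes.

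Markers of cells other than the hormone-secreting ones are set beside these results. None of the endothelial, immune, plasma cell and stem cell markers passed an adjusted p under 0.05 between genotypes (limma). At an unadjusted p under 0.05, 4 of 4, 3 of 5, 3 of 3 and 2 of 3 tested were higher in mutants on SD. Of all tested genes 10.9% were. The summed value of 4 endothelial markers was 89.8 to 112 in controls and 133 to 192 in mutants on SD. That of 5 immune markers was 35.7 to 51.4 against 65.2 to 170, and the sum of stem and folliculostellate markers 49.3 to 57.4 against 66.3 to 93.7. On HFD the immune sums overlapped, at 33.3 to 114 against 64.3 to 146. Of 5 posterior lobe markers 1, Col25a1, passed on SD (log2 fold change 1.00 ± 0.22, adjusted p = 0.0321 by limma). Fitted differences on SD were above 0 in 2 of the 5. Their sum on SD was 15.8 to 18.8 in controls and 14.6 to 30.4 in mutants. On HFD it was 15.2 to 17.1 against 22.4 to 25.3. Plasma cell and B cell markers summed to 8.11 to 10.6 in controls and to 27.1 to 342 in mutants, with the immunoglobulin genes Igkc and Ighm as the larger part, and on HFD to 5.37 to 10.03 in controls and 8.29 to 145 in mutants. Of these 5 markers 0 were at 0 in any mouse. Plasma cells are known for a strong Xbp1 programme and for Derl3. The mouse with the highest plasma cell sum, P384, had the highest Creld2, Herpud1 and Ero1b of the mutants on SD but the lowest Trib3. Markers of the hormone-secreting cells differed unevenly, and none passed an adjusted p under 0.05 (limma). On SD the log2 fold change was -1.06 for Drd2 and 0.25 for Prl of lactotrophs. It was -0.44 for Ghrhr and 0.08 for Gh of somatotrophs. For the thyrotroph markers Dio2 and Tshb it was 1.23 and 0.21 on SD and 1.44 and 0.04 on HFD. The median of 4 melanotroph markers was -0.93 on SD, P357 included, and 0.61 on HFD. Gonadotrophs had a summed marker value on HFD of 584 to 1420 in controls and 388.1 to 776 in mutants. Lhb was the larger part of it, with a log2 fold change of -1.18, while those of Fshb and Gnrhr were 0.87 and -0.009. The part of these cells in the results was not tested.

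Mutants and controls on HFD were compared next. None of the 40 genes passed an adjusted p under 0.05 (limma), as 0% of all tested genes did, and 1 of the 40 was higher and 0 lower at an unadjusted p under 0.05, against 6.58% of all tested genes. Without P392 653 of all tested genes (4.55%) passed an adjusted p under 0.05, with 0 of the 40 among them. The gene higher at an unadjusted p was Trib3, with 1.07, 1.61, 2.06 and 1.64 in the controls P385, P390, P391 and P392 and 3.16, 2.14, 2.05 and 3.43 in the mutants P339, P341, P387 and P388. P387 met the highest control. The log2 fold change was 0.60 ± 0.25 (adjusted p = 0.430 by limma, exact permutation p = 0.0571). Ppp1r15a had 20.2, 17.9, 15.2 and 27.7 against 21.6, 24.5, 24.1 and 32.2 (log2 fold change 0.35 ± 0.23), and Ero1b 29.3, 31.2, 21.5 and 38.4 against 37.1, 33.8, 36.5 and 33.1 (0.25 ± 0.16).

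On HFD the fitted difference was above 0 in 33 of the 40 genes, against 53.9% of all tested genes, with a median of 0.09 against 0.02. Single controls decided this. Without P391 it was above 0 in 18 genes with a median of -0.02, and without P392 in 38 with a median of 0.16 and 6 genes at an unadjusted p under 0.05. Without P385 the median was 0.15, and without P390 it was 0.06. None of the 40 genes had groups that did not overlap, against 2.96% of all tested genes higher in mutants. Without P392 there were 4, namely Ero1b, Atf6, Ppp1r15a and Sel1l, against 12.2% of all tested genes with 3 controls.

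HFD was then set against SD within mutants. None of the 40 genes passed an adjusted p under 0.05 (limma), as 0% of all tested genes did. The fitted difference was above 0 in 30 of the 40, against 54.2% of all tested genes, with a median of 0.09 against 0.02, and 0.04 without P357. Derl2, a Derlin of the ERAD channel (chr11:71007164-71019841), was the 1 gene higher at an unadjusted p under 0.05, against 2.55% of all tested genes. Its values were 21.5, 20.4, 24.6 and 22.4 on SD and 28.2, 26.9, 24.1 and 25.2 on HFD, and only P382 on SD overlapped the HFD mice. The log2 fold change was 0.23 ± 0.09 (adjusted p = 0.813). Ddit3 had 38.9, 39.1, 46.7 and 43.9 on HFD, with P387 and P388 within the range of the mutants on SD, and a log2 fold change of -0.24 ± 0.11 (adjusted p = 0.813). Canx had 269, 215, 224 and 218 on HFD, and its log2 fold change was 0.41 ± 0.21, and 0.14 ± 0.13 without P357. Groups did not overlap in Hsp90b1 and Xbp1, 2 of the 40 genes (5%), against 1.88% of all tested genes. Hsp90b1 had 565, 479.6, 502 and 483 on HFD and Xbp1 231, 239, 241 and 232.

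HFD was set against SD within controls as well. None of the 40 genes passed an adjusted p under 0.05 (limma), as 0% of all tested genes did, with 7 of the 40 (17.5%) higher and 0 lower at an unadjusted p under 0.05, against 1.92% of all tested genes higher. The fitted difference was above 0 in 38 of the 40, against 50.3% of all tested genes, with a median of 0.18 against 0.00. The 7 genes were Ero1b (0.56 ± 0.16), Dnajb9 (0.50 ± 0.19), Creld2 (0.44 ± 0.17), Dnajb11 (0.39 ± 0.17), Pdia4 (0.36 ± 0.14), Herpud1 (0.31 ± 0.12) and Derl2 (0.26 ± 0.09), given as log2 fold change ± SE. Dnajb9 and Dnajb11 encode co-chaperones of BiP and Pdia4 a disulfide isomerase. All 11 luminal chaperones, 8 ERAD genes and 7 translocation genes had a difference above 0.

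The spread among HFD controls was wide. Ero1b, given for these mice above, was higher than every control on SD in P385, P390 and P392 but not in P391. Creld2 had 77.8, 60.6, 50.8 and 106 on HFD, and Herpud1 105, 114, 86.1 and 126. In Herpud1 P391 lay within the range of the controls on SD, and in Creld2 P390 and P391 did. Hspa5 had 756, 620.1, 501 and 786 on HFD, a log2 fold change of 0.34 ± 0.18. Derl2 was the only gene of the 40 whose groups did not overlap (2.5%, against 1.25% of all tested genes), with 22.4, 22.4, 24.9 and 22.7 on SD and 30.2, 27.2, 25.8 and 27.7 on HFD. Its adjusted p was 0.998. The number of genes at an unadjusted p under 0.05 was 18 without P391, 11 without P356, 3 without P392 and 3 without P358, P383 or P385. The median was 0.30 without P391 and 0.11 without P392, where 32 of the 40 were above 0. On HFD the remaining sensors and targets ranged, in controls, from 16.6 to 19.97 for Atf6 with P391 at 12.9, from 53.3 to 101 for Ern1, from 20.2 to 31.2 for Eif2ak3, from 91.4 to 135 for Atf4 and from 42.4 to 47.2 for Ddit3.

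**Figure D5:**
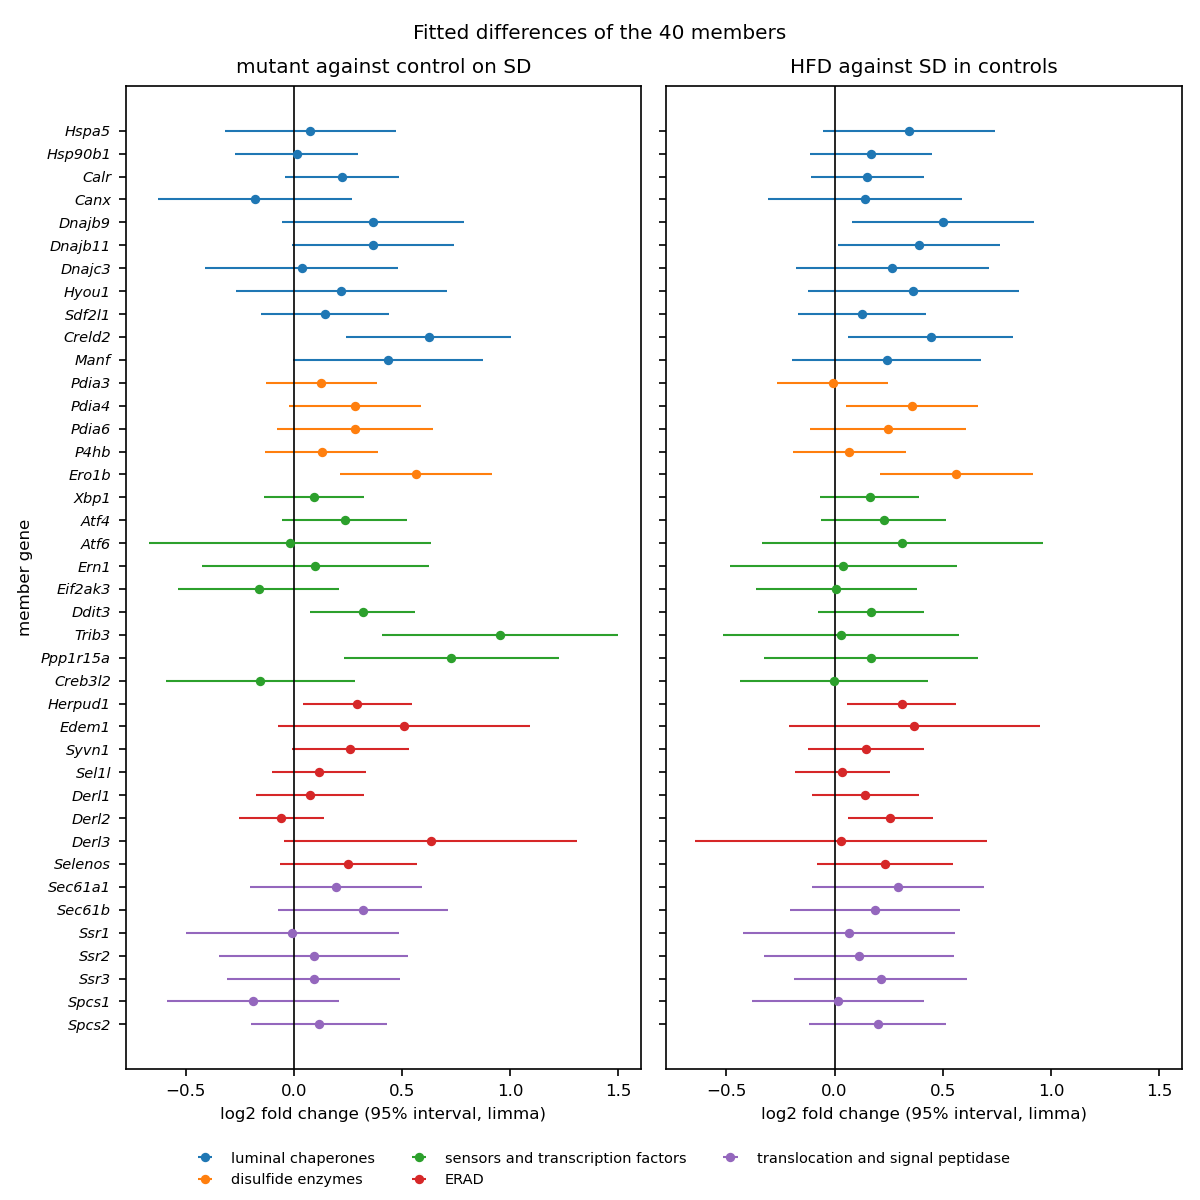
Fitted log2 fold change (limma) of each of the 40 genes with a 95% interval, coloured by role. The left panel is mutant against control on SD and the right panel HFD against SD in controls. Intervals use the limma SE with the residual degrees of freedom only, so they are slightly wider than the limma p-values imply. Trib3, Ppp1r15a, Derl3, Creld2 and Ero1b stand farthest right in the left panel and Ero1b and Dnajb9 in the right panel, and both panels share the control mice on SD.

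Both of these comparisons use the control mice on SD, so their values are shown side by side and not correlated. Creld2 differed by 0.62 on the log2 scale between genotypes on SD and by 0.44 between diets in controls, Ero1b by 0.56 and 0.56, and Herpud1 by 0.29 and 0.31. Trib3 differed by 0.95 and 0.03, and Ppp1r15a by 0.73 and 0.17. The interaction of genotype and diet tests whether the diet difference was unlike between genotypes. None of the 40 genes passed it at an adjusted p under 0.05 (limma), as 0% of all tested genes did, and 2 of the 40 (5%) were negative at an unadjusted p under 0.05, against 2.07% of all tested genes. These were Ddit3 (-0.40 ± 0.16 on the log2 scale, adjusted p = 0.924) and Herpud1 (-0.35 ± 0.16, adjusted p = 0.924). Without P391 there were 8 such genes and without P356 4. The fitted interaction was above 0 in 12 of the 40, against 53.2% of all tested genes, and in 3 without P357, 7 without P391 and 17 without P385 or P392. Its median was -0.13 against 0.02 over all tested genes, and 0.00 after quantile normalization, where 20 of the 40 were above 0.

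The genes holding ERSE were set beside the others of the list. On SD the 10 genes had a median log2 fold change between genotypes of 0.24, and the 24 with a window and no ERSE 0.14. Within controls the medians for HFD against SD were 0.21 and 0.17. Of 27 other genes in the genome with ERSE in their window 9 had values high enough to be tested, among them Alg12, an enzyme of ER glycosylation. Their median was -0.11 on SD between genotypes, with 2 of 9 above 0, and 0.20 for HFD against SD in mutants, with 8 of 9 above 0, where the 10 listed genes with ERSE had 0.18. These are medians over genes chosen by their sequence, and no difference between them was tested.

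Other genes of the pathway were read from a further list. Of 20 folding genes 0 passed an adjusted p under 0.05 between genotypes on SD (limma), 2 were higher and 1 lower at an unadjusted p under 0.05, and the median log2 fold change was 0.14. These counts are to be read against 10.9% of all tested genes higher at an unadjusted p under 0.05 and 1.84% at an adjusted p. The genes named from these lists were chosen after their values were seen. The cyclophilin Ppib was 65.2 to 85.5 in controls and 88.9 to 137 in mutants, and the prolyl isomerase Fkbp2 126 to 252 and 228 to 427. Of 22 translocation and glycosylation genes 0 passed and 2 were higher at an unadjusted p under 0.05, with a median of 0.11. Sec11c, a catalytic subunit of the signal peptidase, was 91.7 to 139 in controls and 161 to 283 in mutants, without overlap (log2 fold change 0.84 ± 0.21, adjusted p = 0.0523). The other catalytic subunit, Sec11a, was 79.1 to 103 against 91.1 to 158 (0.25 ± 0.15, adjusted p = 0.350 by limma). Of 15 further ERAD genes 0 passed, 0 reached an unadjusted p under 0.05, and the median was 0.05. Of 15 tested genes of the wider stress response 1 passed and 5 in all were higher at an unadjusted p under 0.05, with a median of 0.22. Psat1, an ATF4 target of serine synthesis, rose in mutants on SD, from 7.54 to 9.28 in controls to 10.5 to 15.1 in mutants (log2 fold change 0.55 ± 0.13, adjusted p = 0.0409 by limma). The other 4 genes at an unadjusted p under 0.05 were Asns, Chac1, Atf3 and Nupr1, and 3 of the 15 had a fitted difference below 0, Ddit4 at -0.44, Sesn2 at -0.25 and Mbtps1 at -0.23. Asns, asparagine synthetase, was 38.1 to 53.2 against 54.1 to 74.8, Chac1 2.88 to 5.91 against 5.92 to 11.49, the transcription factor Atf3 0.320 to 4.08 against 3.38 to 20.8, and the stress protein Nupr1 4.17 to 8.30 against 8.66 to 22.5. Atf3 is also an immediate-early gene.

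Because the pituitary devotes so much of its RNA to prolactin, 6 genes were set against the share of Prl in the library. Pearson r was 0.53 for Creld2, 0.48 for Hsp90b1, 0.43 for Xbp1, 0.24 for Hspa5, 0.22 for Sec61b and 0.08 for Atf4 over 16 mice. Spearman rho was 0.48, 0.44, 0.38, 0.29, 0.16 and 0.08 in the same order. The smallest raw permutation p was 0.0318, for Creld2, and adjusted over the 6 relations it was 0.180 (two-sided, 100000 resamples), with 0.276 for its Spearman rho. No relation passed. Without P339 and P392, the mice farthest from the median share, r was 0.40 for Creld2 and -0.08 for Hspa5. Within the 8 controls r for Creld2 was 0.62 and within the 8 mutants 0.12. Divided by the sum of values without Prl, Creld2 had an r of 0.50. A relation between these genes and the share of Prl was not detectable with these mice.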

How the data were processed

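Pituitary RNA of 16 mice was sequenced as 1 library per mouse. The authors quantified reads against the mouse transcriptome (mm10) with kallisto in gene mode and tested them with sleuth, and versions, the annotation release and the use of strand are not given in the sources used here. The deposited values are not whole numbers and were treated as a normalised signal per gene and library, and their exact scaling is not stated, so no count test was run and depth is unknown. All 16 columns were used. Groups came from the labels' genotype and diet.

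Values were analysed as log2(value + 0.5) for 14345 genes whose mean reached 1, with 1 mean per group in limma 3.58.1 (R 4.3.3), eBayes with trend and Benjamini-Hochberg adjustment at 0.05. The script was tested on simulated data. Single genes were also compared by an exact two-sided permutation test, run in R. The permutations of the relation to Prl were run with scipy 1.17.1 (Python 3.11.15). The members and lists were chosen with earlier results of these data known. Values per mouse are given for the 3 members with the smallest p in each group comparison and for 12 sensors and standard readouts; other members named with values were chosen after their values were seen. Alternatives comprised filters, pseudocounts, scalings, a fit of 8 mice, covariates and mice left out. Counts of non-overlapping groups without P357 or P392 were added after seeing the data. Transcripts were compared with blastn 2.17.0, and gene coordinates are those of GRCm38 (mm10).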

Additional observations from a re-analysis of the deposited data

Results flagged for a closer look

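Within the 4 groups, 64 sets of 4 values of the named genes were examined for a mouse far from the others, and 4 stood out, where chance gives about 1 in 20. Atf6 was 16.3 in the control P356 and 12.02 to 12.3 in the other controls on SD. Canx was 269 in the mutant P339 and 215 to 224 in the other mutants on HFD. Derl2 was 24.9 in the control P359 and 22.4 to 22.7 in the other controls on SD. Sdf2l1 was 78.7 in the mutant P384 and 67.1 to 68.7 in the other mutants on SD.

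The mutant on SD P357 stood apart from its group as a library. Its mitochondrial share was 8.94% against 3.82% to 3.97%, the share of the 40 genes was 0.435% against 0.632% to 0.670%, and 533 genes were listed at 0 against 168 to 199. Why it did so was not tested.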

How the results depend on the processing

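The number of the 40 genes at an adjusted p under 0.05 between genotypes on SD was 0, 1 when only the 8 mice compared were fitted (Creld2), 2 without P357 and P392 (Creld2 and Ero1b) and 0 to 3 with each mouse left out in turn, the 3 being without P392. In the other 4 comparisons it was 0 under every alternative run. The median over the 40 genes on SD ran from 0.06 to 0.27 over 29 alternatives (28 for the interaction, which 8 mice cannot give), on HFD between genotypes from -0.02 to 0.16, in mutants from 0.04 to 0.13, in controls from 0.11 to 0.30 and for the interaction from -0.23 to 0.00.

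Differences near 0 on SD turned sign. After quantile normalization the log2 fold change was 0.018 for Atf6, -0.11 for Xbp1, -0.085 for Hspa5 and -0.19 for Hsp90b1. After scaling to the sum without Prl, Gh and mitochondrial genes it was -0.0025 for Ern1, -0.011 for Xbp1, -0.027 for Hspa5 and -0.089 for Hsp90b1. With the mitochondrial share as covariate it was 0.051 for Eif2ak3 and 0.43 for Atf6, and without P357 and P392 0.037 and 0.41. With each mouse left out in turn it ran from -0.013 to 0.34 for Ern1, -0.27 to 0.037 for Eif2ak3, -0.23 to 0.41 for Atf6, -0.045 to 0.24 for Hspa5 and -0.031 to 0.099 for Hsp90b1. The relation to the share of Prl turned sign without P339 and P392 for Hspa5 (-0.075) and Atf4 (-0.16), and within mutants for Hspa5 (-0.12), Sec61b (-0.56) and Atf4 (-0.28). The cause was not tested.

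No paired analysis was possible because the labels give no replicate numbers shared between groups. DESeq2 was not run, since the values are not counts. With 4 mice per group and unknown depth, small differences of the low gene Trib3 are the least certain.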
